A study of Rattus norvegicus with 6 samples.

Results

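The genes described here are 10 enzymes of purine nucleotide synthesis and salvage: Hprt1, Aprt, Adk, Pnp, Ada, Ppat, Gart, Paics, Atic and Impdh2. They were taken by symbol from a table of 33350 gene models, of which 12198 reached the mean of 1 FPKM over all libraries that was needed for a test. All 10 reached that mean. FPKM is the number of reads on a gene scaled to gene length and library size. Where a symbol had several gene models, the model was chosen by its mean FPKM over the 6 libraries, the highest being used, which concerned Hprt1 alone, with a mean of 9.06 FPKM on the first model and 2.28 FPKM on the second. The set was put together with results of these libraries known, and it is named for Hprt1. The difference of Hprt1 between the groups is therefore described without a test, and the choice of the others is no independent evidence.

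RNA was sequenced from rat cells labelled PC12, a line from an adrenal pheochromocytoma, a tumour of chromaffin cells. The EN group (3 libraries) received exosomes, small vesicles shed by cells, that came from endothelial cells with high expression of NTN1, the gene of the axon guidance protein netrin-1. The EC group (3 libraries) received exosomes of control endothelial cells. Dose, time of treatment and the origin of the endothelial cells are not stated in the labels. Nor is it stated that replicates were separate cultures, so a p-value here reflects no more than the spread among the libraries, which may be technical.

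Reads worked back from the FPKM came to 16654025 to 19626012 per library in EN and 15296193 to 16165804 in EC, so every EN library was the deeper. Mitochondrial genes held 4.40 to 5.50% of the reads in EN and 5.43 to 6.09% in EC. Of 14 chromaffin cell markers, 2 reached a mean of 1 FPKM (Th and Slc18a2), and others, Pnmt and Hand2 among them, had no read in any library. The summed chromaffin markers lay between 7.66 and 8.16 FPKM in EN and between 7.61 and 8.72 FPKM in EC. Of 11 Schwann cell and glial markers in the table, 10 reached 1 FPKM, none was at 0 in any library, and their sum was 416 to 449 FPKM in EN against 470.0 to 481 FPKM in EC. The sum of 10 fibroblast markers was 120.2 to 122 FPKM in EN and 114 to 118 FPKM in EC, with Lum at 0 in all libraries and Dcn in 5 of 6. The sum of 7 endothelial markers was 8.89 to 9.73 FPKM in EN and 6.71 to 8.53 FPKM in EC. Egfl7 differed most among them, with means of 6.09 FPKM in EN and 4.12 FPKM in EC. Tek averaged 1.25 FPKM in EN and 1.23 FPKM in EC, and Tie1 1.70 and 1.77 FPKM, so the gap in the sum was not shared by all markers. Of the 7, Kdr and Emcn were at 0 in all EC libraries and had 1 read each in EN. The part of these shifts in the results on purine genes was not tested. In bulk samples, fewer cells of a type and less RNA per cell cannot be told apart.

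Cells obtain purine nucleotides in 2 ways. De novo synthesis builds the ring on phosphoribosyl pyrophosphate (PRPP), starting with the amidotransferase Ppat and ending at inosine monophosphate (IMP), which Impdh2 commits to guanine nucleotides. Salvage recycles bases and nucleosides: Hprt1 joins hypoxanthine or guanine to PRPP, Aprt does the same with adenine, Adk phosphorylates adenosine, Pnp splits inosine and guanosine, and Ada deaminates adenosine. Hprt1 is X-linked, its loss in people causes Lesch-Nyhan disease, and its transcript is widely used as a qPCR reference.

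Promoter sequences are shown for Hprt1, Aprt, Ppat and Paics, for the reasons given with each pair, and not for Impdh2 or the other genes of the set. They come from RefSeq on the GRCr8 build, which is not the Rnor_6.0 build of the expression table, and run from 250 bases before to 50 bases after the annotated start, 5′ to 3′ on the gene's strand. All 10 genes matched a promoter by symbol. Hprt1 (chrX:137655494-137655793, plus strand) and Aprt (chr19:67536978-67537277, minus strand) are printed as the pair of purine phosphoribosyltransferases. Capitals mark the GC box GGGCGG on either strand.
Hprt1: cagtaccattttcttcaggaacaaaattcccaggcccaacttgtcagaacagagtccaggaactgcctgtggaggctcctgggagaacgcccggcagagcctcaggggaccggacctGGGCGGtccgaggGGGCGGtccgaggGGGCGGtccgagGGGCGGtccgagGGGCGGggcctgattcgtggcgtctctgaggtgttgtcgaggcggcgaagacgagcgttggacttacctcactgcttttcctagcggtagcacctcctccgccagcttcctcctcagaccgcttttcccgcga
Aprt: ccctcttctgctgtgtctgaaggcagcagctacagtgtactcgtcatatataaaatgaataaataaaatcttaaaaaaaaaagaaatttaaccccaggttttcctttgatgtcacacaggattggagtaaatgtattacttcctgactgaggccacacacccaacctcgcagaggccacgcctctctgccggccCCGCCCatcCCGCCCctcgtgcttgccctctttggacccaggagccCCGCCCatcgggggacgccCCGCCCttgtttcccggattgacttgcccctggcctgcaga
The Hprt1 window held 5 GC boxes and the Aprt window 4. The motif was in 7 of the 10 windows, and in 33.1% of all 33469 promoter windows. The E-box CACGTG was in 1 of the 10 windows and in 6.42% of all, the ETS core CCGGAA in 2 and in 14.95%, the NRF1 half-site TGCGCA in 0 and in 7.24%, and TATAAA in 3 and in 14.2% (both strands throughout; these motifs do not contain one another). GC content was 64.0% for Hprt1 and 53.3% for Aprt, against a median of 51.7% over all windows. Aprt was the lowest of the 10 windows and Atic and Gart the highest, at 68.0%, so all 10 lay above that median. The GC box is made of G and C alone, and its count was not adjusted for GC content.

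Ppat (chr14:31569760-31570059, plus strand) and Paics (chr14:31569986-31570285, minus strand) start head to head, and they are shown because of that arrangement. Their windows share 74 bases, printed in capitals, which read as reverse complements of each other.
Ppat: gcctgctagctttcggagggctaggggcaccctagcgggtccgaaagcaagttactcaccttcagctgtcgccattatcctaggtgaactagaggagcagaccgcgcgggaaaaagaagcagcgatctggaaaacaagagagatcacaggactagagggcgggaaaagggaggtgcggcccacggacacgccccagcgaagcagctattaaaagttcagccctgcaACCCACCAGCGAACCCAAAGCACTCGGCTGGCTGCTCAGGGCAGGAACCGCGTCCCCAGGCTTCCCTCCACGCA
Paics: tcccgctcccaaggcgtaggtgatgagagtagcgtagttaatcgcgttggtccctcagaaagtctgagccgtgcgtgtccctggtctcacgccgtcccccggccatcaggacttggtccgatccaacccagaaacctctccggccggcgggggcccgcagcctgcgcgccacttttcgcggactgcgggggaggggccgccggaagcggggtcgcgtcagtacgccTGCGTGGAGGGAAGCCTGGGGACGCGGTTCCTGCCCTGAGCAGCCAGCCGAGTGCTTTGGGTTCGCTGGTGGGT
In the expression table (Rnor_6.0) the gene models of Ppat (chromosome 14, 33580541 to 33614919) and Paics (33563886 to 33580566) overlap by 26 bases on opposite strands. Whether the strand of a read was used in counting is not stated, so reads in these bases could belong to either gene.

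Hprt1 was low in all EC libraries. On the first of its gene models, the one used for the set, the groups overlapped. When the Hprt1 models were added, a sum taken after the values were seen, every EN library was higher, but on different models in different libraries. The table holds 2 protein-coding models of this symbol on the minus strand of chromosome X, and RefSeq lists the gene 1 time on GRCr8. The first, ENSRNOG00000048561 (158197149 to 158228749), has a length of 657 bases, a whole number of codons. The second, ENSRNOG00000031367 (158623240 to 158655198), has 1223 bases and starts 426091 bases away. Reads from sequence common to both could be divided between them or left out. How such reads were treated is not stated, so the level on either model is uncertain.

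The first model had 9.91, 0.382 and 42.0 FPKM in EN replicates 1 to 3, against 0.790, 0.705 and 0.567 FPKM in EC replicates 1 to 3. EN replicate 3 and EN replicate 1 thus stood above every EC library, and EN replicate 2 stood below them, so the groups overlapped. The reads behind these values were 114, 5 and 457 in EN and 8, 7 and 6 in EC. The 95% exact Poisson interval was 1.62 to 11.7 reads for EN replicate 2 and 416 to 501 for EN replicate 3. These intervals cover counting error only, and reads without molecular identifiers are not independent molecules. The group means were 17.4 ± 21.8 FPKM in EN and 0.687 ± 0.113 FPKM in EC (SD, n = 3 each). The ratio of means was 25.4, and the EN libraries differed among themselves 110-fold.

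The second model, added after the values were seen, gave another order of libraries. It had 2.48, 6.16 and 3.75 FPKM in EN replicates 1 to 3, against 0.265, 0.541 and 0.507 FPKM in EC replicates 1 to 3. Here every EN library stood above every EC library, and EN replicate 2, the lowest on the first model, was the highest. The reads were 53, 150 and 76 in EN, and 5, 10 and 10 in EC. Group means were 4.13 ± 1.87 FPKM in EN and 0.438 ± 0.151 FPKM in EC (SD, n = 3 each), a ratio of 9.43.

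With both models added, Hprt1 had 167, 155 and 533 reads in EN replicates 1 to 3 and 13, 17 and 16 reads in EC replicates 1 to 3. The groups did not overlap in this sum: the lowest EN library, at 6.54 FPKM, was 5.25-fold above the highest EC library. All EN libraries were above all EC libraries in 18.6% of all genes tested, each on a single model. Both the sum and the second model were added after the values were seen, so their lack of overlap is a description only. The ratio of means was 19.2, from 21.6 ± 21.1 FPKM in EN and 1.13 ± 0.106 FPKM in EC (SD, n = 3 each). The share of these reads on the first model was 68.3, 3.23 and 85.7% in EN replicates 1 to 3, and 61.5, 41.2 and 37.5% in EC replicates 1 to 3. On the log2(FPKM + 1) scale, which understates changes of low genes, the difference of EN minus EC was 2.36 for the first model, 1.78 for the second and 2.98 for the sum. For the first model it was 1.20 without EN replicate 3, 3.68 without EN replicate 2, and 0.63 with limma array weights.

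**Figure D1:**
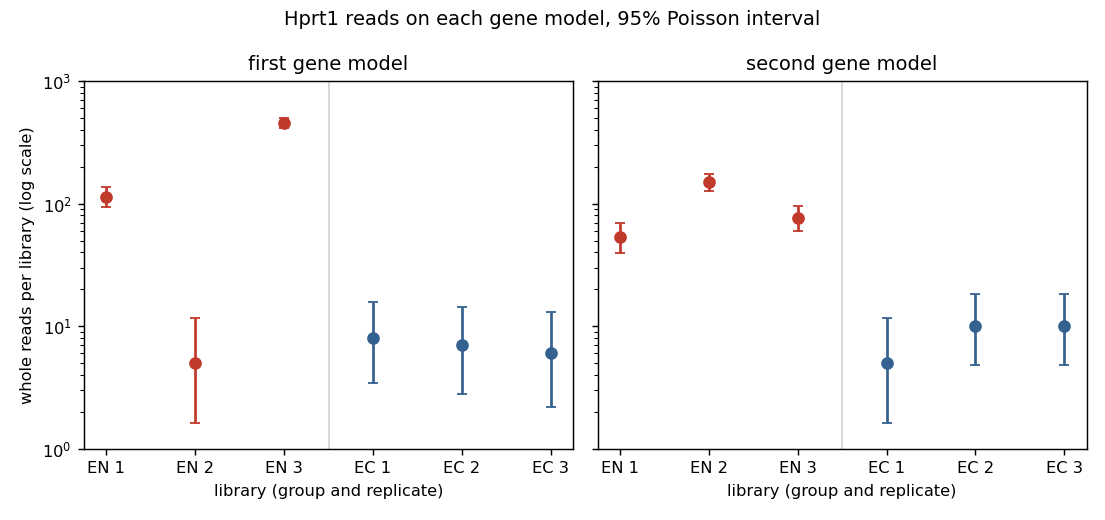
Whole reads on each Hprt1 gene model (y axis, log scale) in the 3 EN and 3 EC libraries (x axis), with exact 95% Poisson intervals as bars. EN replicate 2 lies among the EC libraries on the first model (5 reads) and is the highest library on the second (150 reads).

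The spread of Hprt1 inside EN was among the widest of the table. This rank only describes the values, as Hprt1 was not picked independently of them. Its models averaged 0.687 and 0.438 FPKM in EC, so each reached the mean of 1 FPKM only through EN. The range of log2(FPKM + 1) over the 3 EN libraries was 4.96 for the first model, rank 3 of 12198 genes tested, after Ndufa1 at 5.60 and Nhp2 at 5.37. In EC the range of the first model was 0.19, rank 4470. At so low a level the added 1 narrows the range, so the EC ranges of Hprt1 cannot be set evenly against those in EN. The second model ranged over 1.04 in EN (rank 330) and 0.28 in EC (rank 2524). Ranges above 1 occurred in 358 of the 12198 genes in EN and in 401 in EC. They were more frequent among protein-coding genes whose symbol is on 2 or more models, at 35 of 206 (17.0%) in EN and 31 of 206 (15.05%) in EC, than among those with 1 model, at 103 of 10609 (0.971%) in EN and 106 of 10609 (0.999%) in EC. This is a count over genes, without a test.

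**Figure D2:**
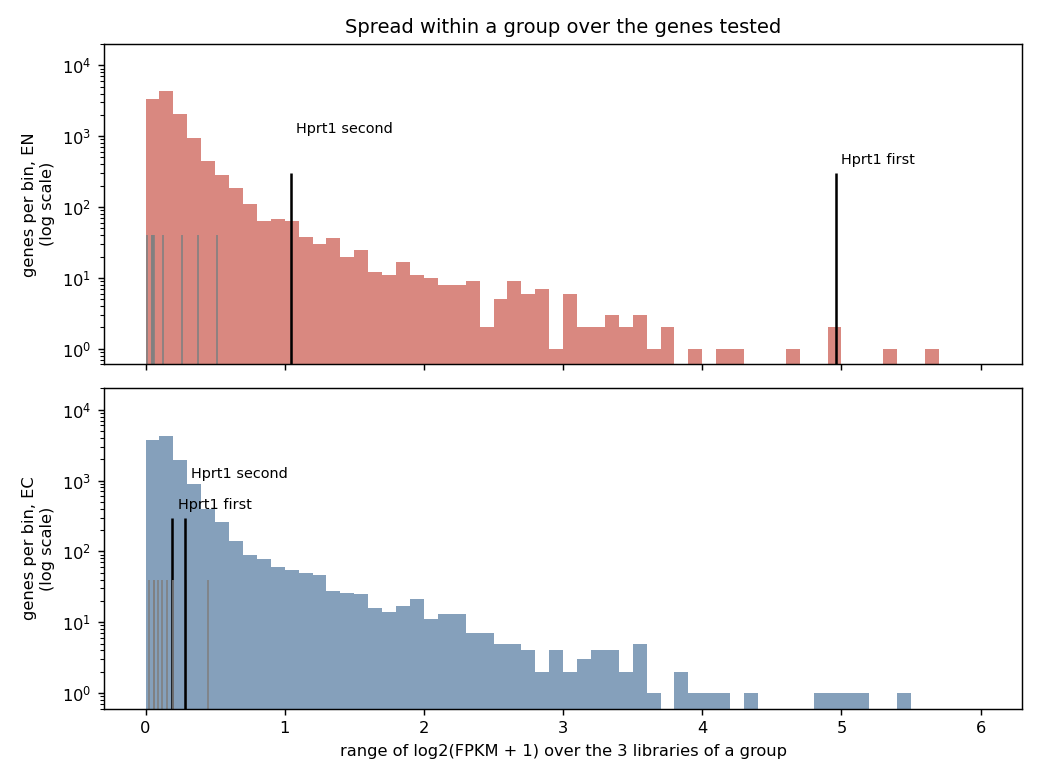
Number of genes tested (y axis, log scale) by the range of log2(FPKM + 1) over the 3 libraries of EN (top) and EC (bottom). Black lines mark the Hprt1 models and grey lines the other 9 genes; the first Hprt1 model lies at 4.96 in EN and 0.19 in EC.

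Some other symbols near Hprt1 also have more than 1 gene model. Within 500 kb of the models, 6 symbols had more than 1, Hprt1 itself and 2 microRNAs among them. Phf6 and Plac1, which are among the 6, are given here with LOC100909732, which has only 1 model there. These 3 were chosen after their values were seen. Phf6, a PHD finger protein, had 4, 5 and 3 reads in EN and 10, 58 and 3 reads in EC replicates 1 to 3 on its model of 855 bases (158268653 to 158288109). EC replicate 2 thus stood apart there. Its other model, of 4372 bases (158698356 to 158739838), had 106, 158 and 107 reads in EN and 111, 93 and 114 reads in EC. LOC100909732, annotated as FAM122B-like (158350347 to 158376783), lies between the Hprt1 models. It had 103, 8 and 78 reads in EN replicates 1 to 3 and 10, 6 and 8 reads in EC replicates 1 to 3, so that EN replicates 1 and 3 were high and EN replicate 2 was at the level of EC, as on the first Hprt1 model. Plac1, a placenta-enriched gene, had no read on 1 of its models. On the other (158569056 to 158569577) it had 1, 0 and 11 reads in EN replicates 1 to 3 and 11, 3 and 12 reads in EC replicates 1 to 3, so that its libraries stood in an order unlike that of Hprt1. Neither the order of libraries on these models nor its relation to Hprt1 was tested.

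The genes most like the first Hprt1 model were found by the Euclidean distance of log2(FPKM + 1), centred on each gene's own mean, over the 6 libraries, among the 9067 that averaged 5 FPKM or more. They were Ebna1bp2 (distance 2.55), Nhp2 (2.70), Cttn (3.12), LOC100360137 (3.19) and Mff (3.47). Of these 5, 3 also have a symbol on 2 gene models. Over all 12198 genes tested, 468 have a symbol on 2 or more, but the share among the 9067 was not counted. The 5 were picked from these same values for their likeness to Hprt1, and the count of 3 was not tested. Ebna1bp2 had 29.7, 4.49 and 27.3 FPKM in EN replicates 1 to 3, and 0.650, 0.459 and 4.11 FPKM in EC replicates 1 to 3. Nhp2 had 0.944, 0.980 and 79.3 FPKM in EN and 0.682, 1.09 and 0.652 FPKM in EC, so that EN replicate 3 alone was high. The distances are large next to the Hprt1 range of 4.96, and the measure describes only these 6 libraries.

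The other 9 genes, Ada excepted, averaged well above Hprt1 over the 6 libraries, although the first Hprt1 model in EN replicate 3 stood above Adk, Gart, Paics and Ppat there. Of these 9, 1 was higher in EN (Impdh2), 0 were lower and 8 did not pass, in limma across all genes with a Benjamini-Hochberg adjusted p under 0.05. Over all genes tested, 14.4% passed, 7.24% as higher and 7.14% as lower, so a count of 1 in 9 is near the background. Their median log2 change was 0.06, and their median size of change also 0.06, against a median of 0.00 and a median size of 0.13 over all genes tested. All EN libraries were above all EC libraries for 4 of the 9 (Impdh2, Aprt, Gart and Ppat) and below them for 0, where 18.6% and 19.4% of all genes tested were so.

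**Figure D3:**
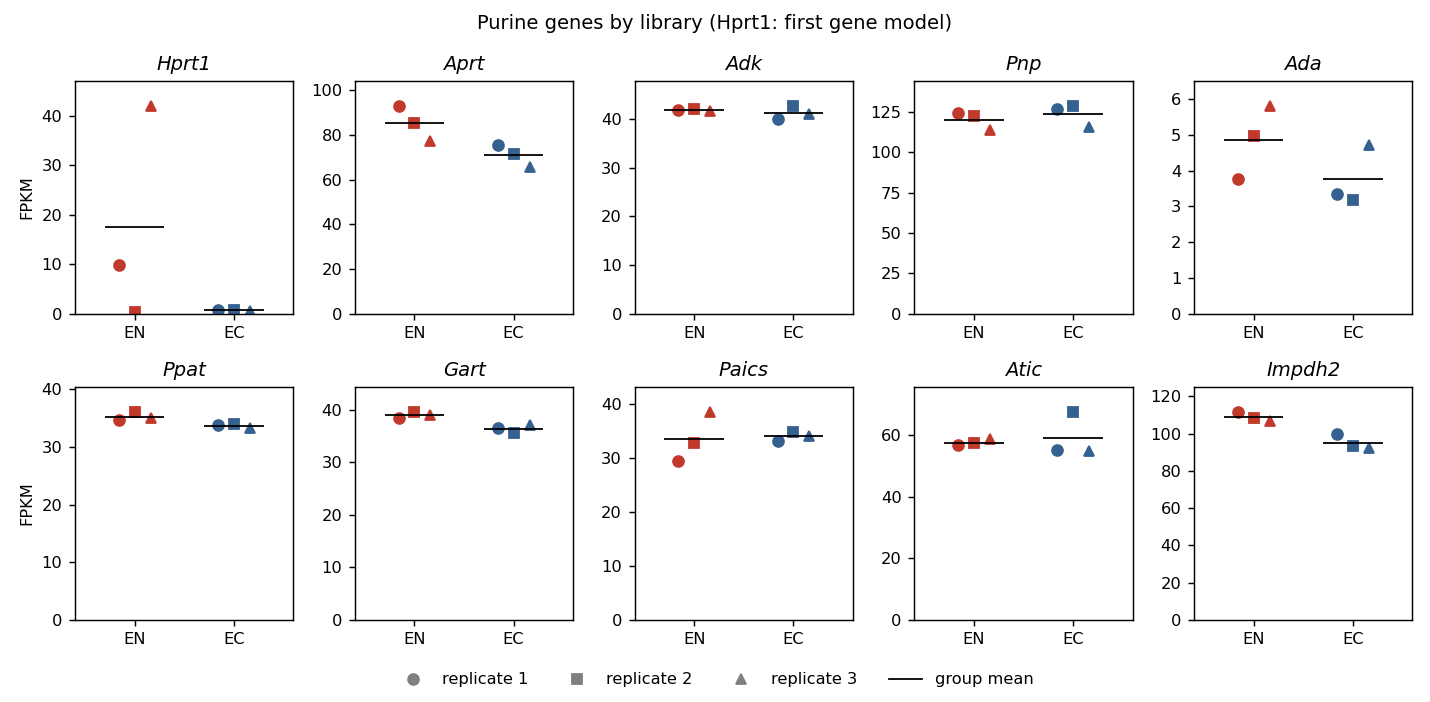
FPKM (y axis, from 0, scaled per gene) in the 3 EN and 3 EC libraries of the 10 genes, with the mean of each group as a line. Hprt1 shows the first gene model, at 42.0 FPKM in EN replicate 3 and under 1 FPKM in 4 libraries, while the groups lie close together for Adk, Pnp, Ppat and Gart.

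Per length, the order of mean levels over the 6 libraries was Pnp (122 FPKM), Impdh2 (102), Aprt (78.1), Atic (58.4), Adk (41.6), Gart (37.7), Ppat (34.5), Paics (33.7), Hprt1 on its first model (9.06) and Ada (4.30). Pnp and Impdh2 did not overlap over the 6 libraries, nor did Atic and Adk, or Adk and Gart. The ranges of Impdh2 and Aprt, of Aprt and Atic, and of Gart and Ppat overlapped, although each pair kept its order in 6 of 6 libraries. Ppat and Paics did not differ beyond their spread, with Ppat above in 3 of 6 libraries. Hprt1 has no fixed place in this order, being above Ada in 2 of 6 libraries.

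Among the salvage enzymes, Aprt (chromosome 19, 55387288 to 55389256), which recycles adenine, had 93.0, 85.2 and 77.4 FPKM in EN replicates 1 to 3, against 75.7, 71.7 and 65.8 FPKM in EC replicates 1 to 3. EN lay above EC without overlap, with its lowest library at 77.4 FPKM and the highest EC library at 75.7 FPKM. The means were 85.2 ± 7.82 FPKM in EN and 71.1 ± 4.99 FPKM in EC (SD, n = 3 each). This difference, 0.26 on the log2 scale with an SE of 0.078, did not pass (limma adjusted p = 0.071). Alternatives in which it passed included limma voom on whole reads (adjusted p = 0.046), array weights (0.015) and the fit without EN replicate 3 (0.034). Over the alternatives the adjusted p was 0.015 to 0.193.

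Adk (chromosome 15, 3033495 to 3435888), which phosphorylates adenosine, was the steadiest of the 10 in EN. It had 41.9, 42.1 and 41.8 FPKM in EN and 40.1, 42.7 and 41.0 FPKM in EC. The EN range of log2(FPKM + 1) was 0.01, narrower than in all but 0.525% of the genes tested. In EC its range was 0.09, and Ppat had the narrowest of the 10 there, at 0.03. AABR07016883.1, which overlaps Adk on the opposite strand, had 0 FPKM in all EN libraries and at most 1.01 FPKM in EC. Pnp (chromosome 15, 27875911 to 27883350), which splits inosine and guanosine, had 124, 122.6 and 114 FPKM in EN and 127, 129 and 115 FPKM in EC. Replicate 3 was the lowest of each group, and the groups overlapped (log2 change -0.04, SE 0.056, limma adjusted p = 0.663). The ratio of Aprt to Adk was 2.22, 2.02 and 1.85 in EN, and 1.89, 1.68 and 1.605 in EC.

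Ada (chromosome 3, 160115842 to 160139947), which turns adenosine into inosine, was the lowest of the 10 by mean. It had 3.77, 4.97 and 5.81 FPKM in EN and 3.35, 3.18 and 4.72 FPKM in EC, from 92 to 138 reads per EN library and 67 to 106 per EC library. EC replicate 3 lay above EN replicate 1, so the groups overlapped. The log2 change of 0.30 (SE 0.170) did not pass (limma adjusted p = 0.268), and the range within EN and within EC was wider than in 91.5% and 90.3% of the genes tested.

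Of the enzymes that build IMP, Ppat and Gart were slightly higher in every EN library and did not pass. Ppat, which starts the pathway, had 34.8, 36.1 and 35.0 FPKM in EN against 33.8, 34.0 and 33.3 FPKM in EC (log2 change 0.06, SE 0.037, limma adjusted p = 0.278). Gart, a trifunctional enzyme of the following steps (chromosome 11, 31780487 to 31805728), had 38.4, 39.6 and 39.0 FPKM in EN against 36.6, 35.6 and 37.2 FPKM in EC. Its log2 change was 0.10 (SE 0.037, limma adjusted p = 0.131), and 0.034 was its adjusted p with array weights, the smallest of its alternatives.

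Paics, which carries out a pair of consecutive steps in the middle of the pathway, had 29.4, 32.7 and 38.4 FPKM in EN and 33.2, 34.7 and 33.9 FPKM in EC. EN replicate 1 was below and EN replicate 3 above all EC libraries, a 1.31-fold spread within EN against 1.05-fold within EC. The log2 change was -0.03 (SE 0.091, limma adjusted p = 0.864), and 0.06 without EN replicate 1. The ratio of Paics to its divergent neighbour Ppat was 0.845, 0.906 and 1.10 in EN and 0.982, 1.02 and 1.02 in EC. Atic, which completes IMP (chromosome 9, 78862013 to 78882060), had 56.7, 57.4 and 58.6 FPKM in EN and 55.1, 67.5 and 54.9 FPKM in EC. EC replicate 2 alone stood apart, and the log2 change was -0.03 (SE 0.080, limma adjusted p = 0.811), or 0.06 without that library.

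Impdh2, the IMP dehydrogenase that leads to guanine nucleotides (chromosome 8, 117347029 to 117351610), was the gene that passed. It had 112, 108 and 107 FPKM in EN replicates 1 to 3, against 100.02, 93.1 and 92.0 FPKM in EC replicates 1 to 3. The groups did not overlap, and 3 of 3 EN libraries were higher than all of EC. The means were 109 ± 2.37 FPKM in EN and 95.1 ± 4.33 FPKM in EC (SD, n = 3 each), a 1.15-fold difference (log2 change 0.20, SE 0.043, limma adjusted p = 0.030). The call was lost without EN replicate 1, EN replicate 2, EC replicate 2 or EC replicate 3, with limma adjusted p of 0.095, 0.099, 0.109 and 0.101. In these fits the calls over all genes tested also fell, from 1754 to between 338 and 446. The Impdh2 call was also lost with no filter on low values (0.054) and with no variance trend (0.066). Over all alternatives the adjusted p in limma was 0.0068 to 0.109.

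The second IMP dehydrogenase gene, Impdh1, is one of 39 other tested purine genes in 6 lists by role. Of these 39, 5 were higher in EN (Impdh1, Pfas, Ampd2, Itpa and Nme1), 3 were lower (Gda, Nt5e and Ak3) and 31 did not pass. That is 20.5%, beside 14.4% of all genes tested, with a median log2 change of -0.01. In each fit without EN replicate 1, EN replicate 2, EC replicate 2 or EC replicate 3, 0 of the 39 passed in limma. The 8 genes had limma adjusted p of 0.055 to 0.145 in these fits. Over all 12198 genes tested, 446, 344, 338 and 408 passed in these fits, against 1754 with all libraries. Calls were thus lost over the whole table, not in purine genes alone. With no filter on low values 3 of the 39 passed, and Impdh1, Pfas, Nme1, Gda and Ak3 did not.

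Impdh1 averaged 30.0 ± 2.53 FPKM in EN and 23.7 ± 0.712 FPKM in EC (SD, n = 3 each), higher by 0.33 on the log2 scale with an SE of 0.065 (limma adjusted p = 0.024). The ratio of Impdh2 to Impdh1 was 3.44, 3.58 and 3.91 in EN and 4.09, 3.95 and 4.0001 in EC. It was lower in every EN library. Adss (the older symbol of Adss2) and Gmps, which act on the routes from IMP to AMP and to GMP, did not pass, with log2 changes of -0.02 and -0.06.

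Among the de novo genes outside the 10, Pfas, which encodes phosphoribosylformylglycinamidine synthase, rose to 20.1 ± 1.02 FPKM in EN, against 17.3 ± 0.417 FPKM in EC (SD, n = 3 each; log2 change 0.20, limma adjusted p = 0.043). Leaving out EC replicate 1 also ended this call (0.075), as did no filter on low values (0.069) and no variance trend (0.065). The other 5 tested, among them the PRPP synthetase genes Prps1 and Prps2, did not pass. In the salvage list, Dck, Dguok and Mtap did not pass either. Dguok, the mitochondrial deoxyguanosine kinase gene, was below EC in every EN library (log2 change -0.36, adjusted p = 0.075 in limma).

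Genes that deaminate, hydrolyse or break down purines moved both ways, 2 of 13 passing as higher and 2 as lower, while 9 did not pass. That is 30.8%, beside 14.4% of all genes tested. Itpa, whose enzyme clears inosine triphosphate, averaged 31.4 ± 1.74 FPKM in EN and 23.1 ± 2.17 FPKM in EC (log2 change 0.43, limma adjusted p = 0.017). Ampd2, an AMP deaminase gene, averaged 21.7 ± 0.107 FPKM in EN and 18.1 ± 0.563 FPKM in EC (log2 change 0.25, limma adjusted p = 0.017). Nt5e, which encodes the ecto-nucleotidase CD73 that releases adenosine from AMP outside the cell, fell to 10.2 ± 0.135 FPKM in EN, against 13.5 ± 0.988 FPKM in EC (log2 change -0.38, limma adjusted p = 0.015). Gda, the guanine deaminase gene, averaged 52.9 ± 6.51 FPKM in EN and 65.9 ± 2.04 FPKM in EC (log2 change -0.32, limma adjusted p = 0.049). All SD are over n = 3 libraries. Gda also missed the threshold with no filter on low values (limma adjusted p = 0.106), no variance trend (0.083), median centring (0.054), quantile normalization (0.055) and without EC replicate 1 (0.073), and its adjusted p over all alternatives was 0.0090 to 0.145.

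Of 11 kinase and reductase genes, 9 did not pass, and 1 passed in each direction, or 18.2%, a share near the 14.4% of all genes tested. Nme1, a nucleoside diphosphate kinase gene, averaged 93.9 ± 9.89 FPKM in EN and 70.2 ± 3.98 FPKM in EC (SD, n = 3 each; log2 change 0.41, limma adjusted p = 0.024). Nme2, a close paralog with which reads could be shared, did not pass (log2 change 0.23). Ak3, a mitochondrial adenylate kinase gene, fell by 0.23 on the log2 scale (limma adjusted p = 0.040). None of the 3 nucleoside transporter genes that could be tested passed in limma, the largest difference being -0.10 for Slc43a3.

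**Figure D4:**
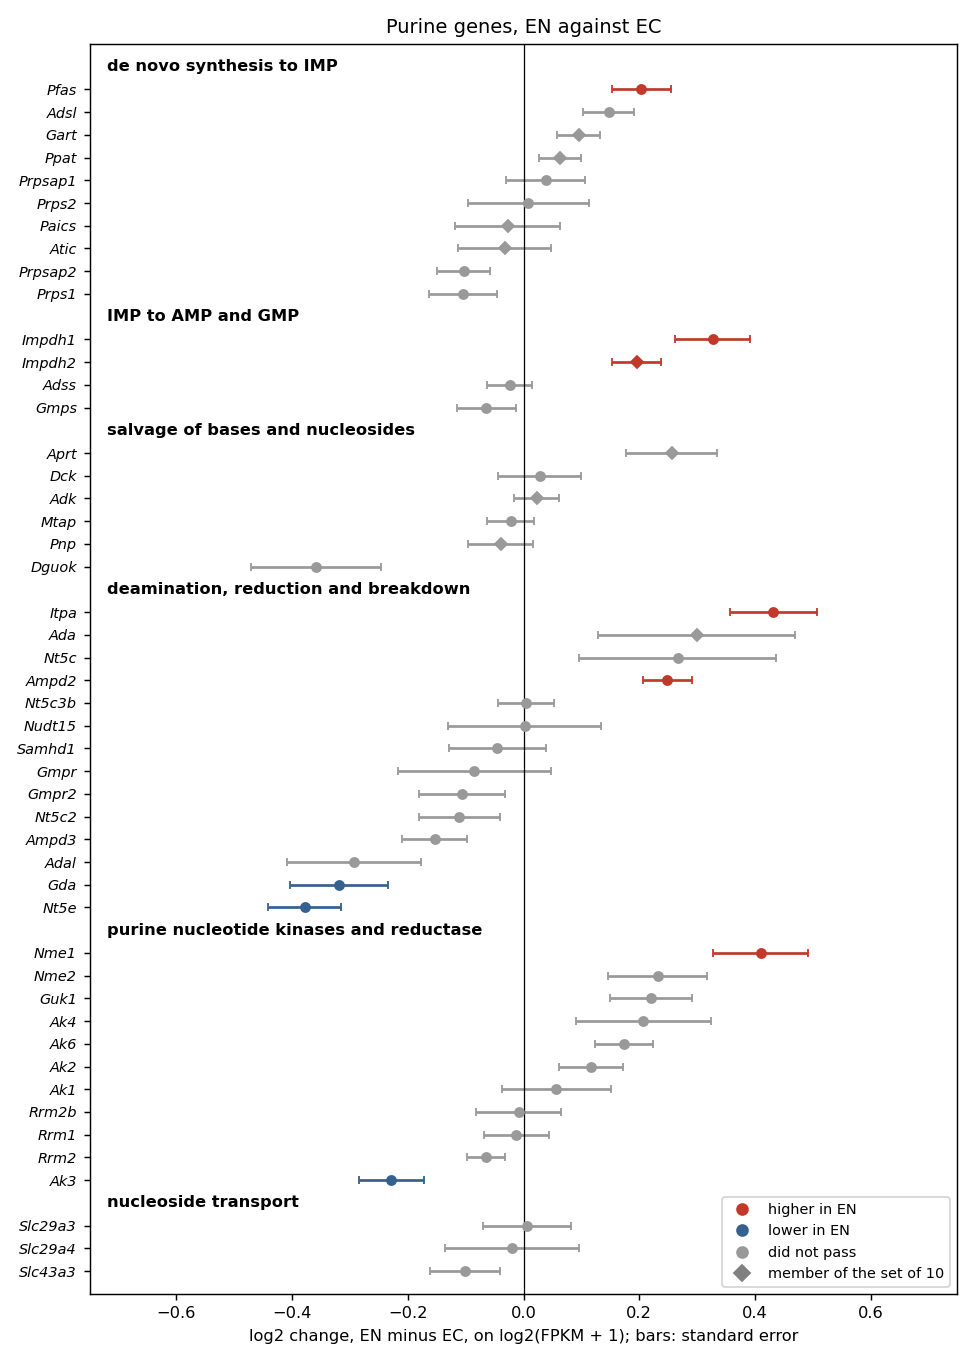
Log2 change of EN minus EC on log2(FPKM + 1) (x axis) for the 48 tested purine genes other than Hprt1, by role (rows), with standard errors as bars. Red is higher in EN, blue lower, grey did not pass, and diamonds are the 9 genes of the set: 32 of the 48 lie within 0.2 of 0, and Impdh2 is the 1 diamond that passed.

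Pyrimidine genes were read beside them because that pathway also draws on PRPP. Of 17 tested, 4 passed, 3 of them higher and 1 lower in EN, or 23.5%, beside 14.4% of all genes. The 3 were the de novo genes Cad, Dhodh and Umps. Cad, which encodes the enzyme of the initial 3 steps, averaged 31.7 ± 0.861 FPKM in EN and 24.5 ± 1.13 FPKM in EC (SD, n = 3 each), or 0.36 higher on the log2 scale with an SE of 0.048 (limma adjusted p = 0.0088). It passed in each of the 17 alternatives. Dhodh had a log2 change of 0.33 and Umps of 0.16 (limma adjusted p = 0.034 for Dhodh and 0.032 for Umps). Cmpk1, a UMP and CMP kinase gene, fell by 0.20 (adjusted p = 0.037 in limma). The calls of Dhodh, Umps and Cmpk1 were lost without EN replicate 1, EN replicate 2, EC replicate 2 or EC replicate 3, with adjusted p in limma of 0.083 to 0.126. Calls over all genes tested fell in these fits too, from 1754 to between 338 and 446. Dhodh was also lost with no filter on low values (0.083), Umps with no variance trend (0.068), and Cmpk1 with either (0.066 and 0.074).

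Because Hprt1 serves as a qPCR reference, it was set beside 19 other genes used that way. Their log2 changes ran from -0.32 (B2m) to 0.35 (Rpl13a), against 2.36 and 1.78 for the Hprt1 models. No range within EN exceeded 0.25 among the 19 genes (Ppia), against 4.96 and 1.04 for the Hprt1 models. In limma, 7 of the 19 were higher in EN (among them Pgk1, Rps18, Rpl13a, Rplp0, Rpl32 and Tfrc), 1 was lower (B2m) and 11 did not pass, or 42.1%, beside 14.4% of all genes. The glycolytic gene Pgk1 averaged 779.8 ± 13.0 FPKM in EN and 619.7 ± 35.1 FPKM in EC (SD, n = 3 each; log2 change 0.33, limma adjusted p = 0.010). Pgk1 passed in all of the 17 alternatives but the fit without EN replicate 2 (limma adjusted p = 0.053), and B2m in all but those without EC replicate 2 (0.064) or EC replicate 3 (0.060). The calls of Rps18, Rpl13a, Rplp0, Rpl32 and Tfrc were lost without EN replicate 1, EN replicate 2, EC replicate 2 or EC replicate 3 (limma adjusted p of 0.053 to 0.131). Calls over all genes tested fell in these fits too, from 1754 to between 338 and 446. These 5 reference genes were also lost with no filter on low values (0.061 to 0.130), and Rplp0, Rpl32 and Tfrc with no variance trend (0.053 to 0.086). With quantile normalization Rpl13a and Rps18 did not pass (0.060 and 0.059), the log2 change of Rpl13a was 0.23, and that of Pgk1 was 0.20. Rpl32 was lost also without EC replicate 1 (0.065), and Tfrc without EC replicate 1 (0.086) or EN replicate 3 (0.066). Rpl32 has its symbol on 2 gene models, so its level is uncertain. Ppib, Eef1a1, Polr2a and Actb had log2 changes of 0.00, 0.02, 0.02 and 0.04.

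**Figure D5:**
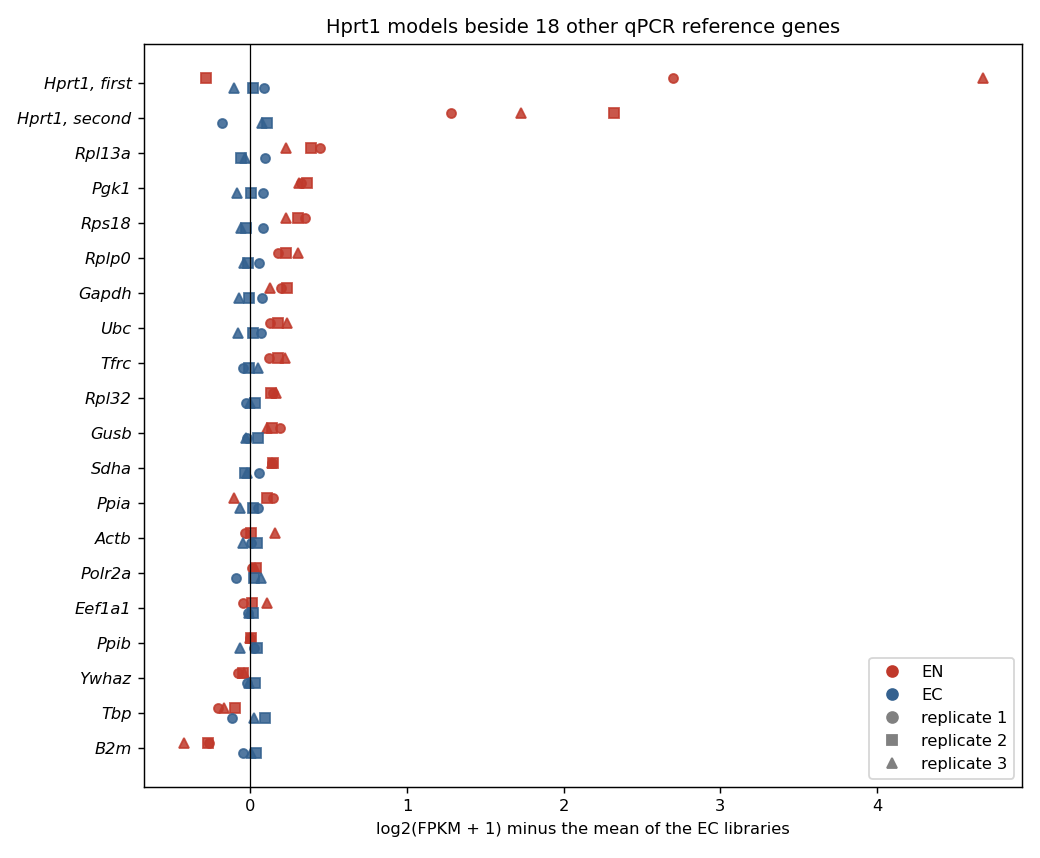
Log2(FPKM + 1) minus the mean of the EC libraries (x axis) for the Hprt1 models and 18 of the 19 other qPCR reference genes (rows), 1 point per library, EN above EC in each row. The EN points of the first Hprt1 model are scattered, with EN replicate 2 beside the EC points, while the 18 other genes lie within a narrow band around 0.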

How the data were processed

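Per the labels' protocols, Trizol was used to take RNA, and 1 ug of it went into each library (Illumina TruSeq RNA kit). The authors deposited 1 table of FPKM with gene symbols, lengths and coordinates. The aligner was HISAT2 2.0.5 and the genome Rnor_6.0, per the submitters' processing notes. Not given in the sources used here are the counting tool, the treatment of reads with several alignments, the strand setting and filters.

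Whole reads were recovered from FPKM and gene length: 100% of values above 0 came out whole in every library, within 0.01. EN was compared with EC by limma 3.58.1 (R 4.3.3), two-sided and with a mean-variance trend, on log2(FPKM + 1) of the 12198 genes that averaged 1 FPKM or more, at a Benjamini-Hochberg adjusted p under 0.05. It was tested on simulated data, in which the changed genes differed by more than any purine gene called here. How well differences as small as that of Impdh2 are recovered was not examined.

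The members and lists were chosen with earlier results of these data known. Named genes were the 10 members, the genes of the 6 purine lists, the pyrimidine list and the reference list that passed, and the 5 genes nearest to Hprt1. Values of some list genes that this rule takes are not reported here. Other names were chosen after their values were seen. Of 143 list entries, 139 matched by symbol, 1 by an older symbol in RefSeq (GRCr8), and 3 were unmatched. Alternatives were other pseudocounts (0.1 and 0.5), filters (none, or a mean of at least 5 FPKM) and scalings, the replicate number as a block, no variance trend, array weights, voom on whole reads with TMM scaling, and each library left out. The second Hprt1 model and the sum of both models were added after seeing the data. Groups of 3 libraries were not examined for samples far from their group.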

Additional observations from a re-analysis of the deposited data

How the results depend on the processing

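The number of genes called over the table was 1754, and 866 with no filter on low values, 1019 with no variance trend, 3849 with array weights, 2371 with voom on whole reads and 338 to 2059 with 1 library left out. Of the 9 members other than Hprt1, 1 passed as reported, 0 with no filter or no variance trend, 2 with voom on whole reads, 3 with array weights, and 0 to 2 with 1 library left out. Of the 39 other purine genes, 8 passed as reported, 3 with no filter, 5 with no variance trend, 14 with array weights and 0 to 10 with 1 library left out. Each count was within 1.5 times of the reported count under the other alternatives, the replicate block for the members excepted.

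Whether the replicate numbers pair the libraries could not be decided. Deviations from the group means correlated at 0.088, -0.095 and -0.020 for numbers 1 to 3, and EN replicates 2 and 3 correlated best with another number. With 3 libraries per group these deviations depend on one another, so weak correlations cannot exclude pairing. With the replicate number as a block, 1907 genes, 2 of the 9 members and 8 of the 39 other genes passed. Under the block Aprt gained the call (limma adjusted p = 0.018) and Pfas lost it (0.053).

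Of 492 refits of 29 named genes, 382 kept their direction and their side of the threshold, 103 lost the call, 5 gained it and 2 changed sign. Those 2 were Paics without EN replicate 1 and Atic without EC replicate 2, neither called. With 1 library left out, the log2 change ran from -0.128 to 0.0607 for Paics and from -0.0821 to 0.0637 for Atic. Ada has no value under the filter of 5 FPKM, which it did not reach. The cause of these shifts was not tested. For Hprt1, 5 to 17 reads per library on a model or on both limit what can be said of its level in EC.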
